A study of Mus musculus with 26 samples.

Results

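A set of 9 genes of fatty acid oxidation was followed in the lacrimal gland of male mice between 4 and 20 weeks of age: Acadm, Acadl, Acadvl, Cpt1a, Cpt2, Hadha, Hadhb, Ehhadh and Pdk4. The members are every probe set (a group of short probes that reads 1 transcript) annotated to only 1 of these genes, which gave 15 of the 45101 probe sets on the array and 9 of its 18194 named genes. All animals were of the strain C57BL/6.NOD-Aec1Aec2, a C57BL/6 line into which the Idd3 part of chromosome 3 and the Idd5 part of chromosome 1 were bred from NOD mice. Its tear and salivary glands come under autoimmune attack in a way that models Sjögren's syndrome. RNA of whole glands was read on 26 Affymetrix arrays. In the study's staging, 4 weeks (n = 4) is before disease, 8 weeks (n = 6) is early and pre-clinical, and leukocytes first enter the gland at 12 weeks (n = 6). Autoimmunity becomes clinical at 16 weeks (n = 5), and secretion is impaired by 20 weeks (n = 5). No other strain was analysed here, so age and disease cannot be told apart. The labels call the arrays biological replicates without saying whether each holds 1 animal or several, so p-values measure only the spread between these samples.

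Long-chain fatty acids enter mitochondria as carnitine esters, made at the outer membrane by Cpt1a and turned back at the inner membrane by Cpt2. Each turn of beta-oxidation then shortens the chain, first through an acyl-CoA dehydrogenase (Acadvl for very long, Acadl for long and Acadm for medium chains) and then through the trifunctional protein, whose alpha and beta subunits are Hadha and Hadhb. Ehhadh carries out the middle steps in peroxisomes, and Pdk4 is a kinase that shuts pyruvate out of the citric acid cycle when fat is the fuel.

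Levels are the deposited log2 values, on which a difference of 1 is a doubling. Of the 15 probe sets, 13 lay above the array median on at least 4 arrays, and each gene kept at least 1 such probe set. The remaining pair, Acadl 1448988_at and Hadhb 1442732_at, averaged 2.62 and 2.79, below the mean of 4.04 under which a level is called near background here. Lacrimal markers were high, with the peroxidase Lpo at a median of 13.97 and the water channel Aqp5 at 10.90, while the muscarinic receptor Chrm3 was near background on every array. A pair of arrays stood apart: 20 weeks replicate 1 had an SD over its probe sets of 1.36 and 16 weeks replicate 4 one of 1.68, against 1.78 to 2.27 on the other 24. The lacrimal marker mean was 9.23 and 7.26 on them, against 10.60 to 11.77 elsewhere. The mean of the salivary gland markers ranged from 3.99 to 10.89 between arrays.

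Hadha and Hadhb lie head to head on chromosome 5, with starts 273 bases apart. The window from 250 bases before to 50 after the start of each gene was taken from RefSeq (GRCm38.p6), where all 9 genes had one. The Hadhb window (chr5:30155003-30155302, plus strand) shares 228 bases with that of Hadha, which are in capitals below and show how closely the genes of both subunits are joined. Of all 32851 windows, 10.8% overlap that of another gene on the opposite strand. The Acadvl window (chr11:70015379-70015678, minus strand) is shown because Acadvl had the smallest p of the 9 genes, with capitals for AGGTCA, a short element bound by many nuclear receptors.
Hadhb: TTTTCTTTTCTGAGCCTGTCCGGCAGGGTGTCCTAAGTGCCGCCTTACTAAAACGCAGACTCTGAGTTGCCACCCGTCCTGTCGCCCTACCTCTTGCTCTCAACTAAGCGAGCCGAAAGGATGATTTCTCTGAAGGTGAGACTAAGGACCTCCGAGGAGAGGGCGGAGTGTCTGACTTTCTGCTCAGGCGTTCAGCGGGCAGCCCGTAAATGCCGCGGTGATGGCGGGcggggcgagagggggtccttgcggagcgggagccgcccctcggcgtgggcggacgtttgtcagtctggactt
Acadvl: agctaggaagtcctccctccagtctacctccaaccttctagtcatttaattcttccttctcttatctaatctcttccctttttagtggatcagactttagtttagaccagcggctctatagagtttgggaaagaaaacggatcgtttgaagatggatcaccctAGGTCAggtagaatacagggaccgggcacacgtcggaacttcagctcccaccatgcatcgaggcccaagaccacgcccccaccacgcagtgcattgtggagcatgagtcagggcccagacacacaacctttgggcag
AGGTCA, searched on both strands, was found in the windows of Acadvl, Acadm and Cpt1a, 3 of 9, and in 16.3% of all windows. A direct repeat of AGGTCA with 1 base between, the form bound by PPAR alpha with its partner Rxra, was in none of the 9 and in 0.0396% of all windows. TNAAGGTCA, which contains AGGTCA and is the form bound by estrogen-related receptors, was in none of the 9 and in 1.28% of all. These matches describe letters in a window and were not set against the expression values.

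Over the 5 ages, 4 of the 9 genes changed: Acadvl, Hadha, Acadm and Acadl. Each was lowest at 20 weeks. The test was limma's F test over all 12377 genes kept, with 1 probe set a gene and Benjamini-Hochberg adjustment, and it called 14.9% of those genes. In 19 of the 26 fits that left out 1 array Acadl was no longer called, so most of these fits did not keep all 4 genes. With 1 probe set a gene, none of the 9 genes passed the adjusted test between single ages. Among all genes that test called 1.36% between 8 and 4 weeks, 0.0162% between 12 and 8 and 2.98% between 16 and 12. It called 0.0162% between 20 and 16 and 2.21% between 20 and 4. In a fit of all 20110 probe sets kept, Cpt1a 1460409_at and Acadl 1448987_at passed for 20 against 4 weeks (adjusted p = 0.00336 and 0.0474, limma). That fit called 3.11% of probe sets in this comparison. For 20 against 16 weeks all 9 fitted differences were negative, with a median of -0.72 against 0.01 over all genes. Single arrays weighed on this: without 20 weeks replicate 1, an array that stands apart, 7 of 9 were negative with a median of -0.44, without 16 weeks replicate 1 all 9 with -0.45, and without 16 weeks replicate 2, 8 of 9 with -0.46. For 20 against 4 weeks 7 of 9 were negative, with a median of -0.55 against 0.01. Without 20 weeks replicate 1 these were 6 of 9 and -0.23, without 4 weeks replicate 4, 8 of 9 and -0.31, and without 4 weeks replicate 3, 8 of 9 and -0.98. In whole glands, fewer cells of a type and less RNA per cell cannot be told apart.

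**Figure D1:**
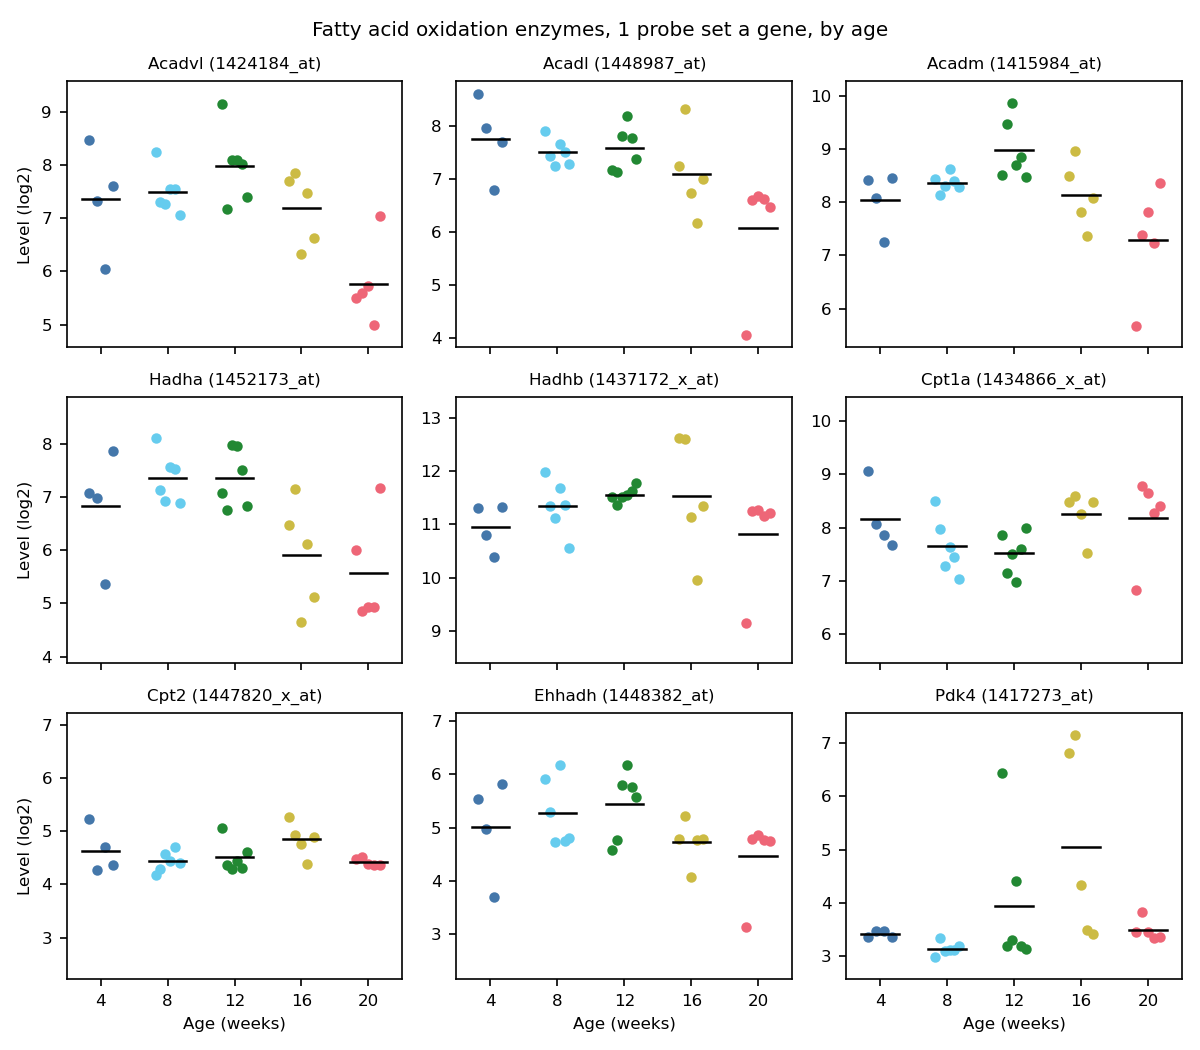
Log2 level (vertical axis) of the 9 genes by age in weeks (horizontal axis), each read by the brightest of its probe sets; points are arrays and lines are means. The 20-week arrays of Acadvl lie between 4.99 and 7.05, and Pdk4 exceeds 6 on 3 arrays only.

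Acadvl (1424184_at), which opens the oxidation of very long chains, read 8.47, 7.32, 6.05 and 7.61 on the 4-week arrays. The 8-week arrays ran from 7.07 through a median of 7.42 to 8.24 and the 12-week arrays from 7.17 through 8.05 to 9.15. The 16-week arrays read 7.70, 7.85, 6.32, 7.48 and 6.63, and the 20-week arrays 5.51, 5.59, 5.72, 4.99 and 7.05. All but 1 of the 20-week arrays were thus below every array of any younger age, and the last was within the younger range. The share of all genes with such a pattern was not counted. Acadvl changed over the 5 ages (adjusted p = 0.00928, limma F test). Its difference was -1.59 ± 0.46 (SE) for 20 against 4 weeks (adjusted p = 0.0684, limma) and -1.43 ± 0.43 for 20 against 16 weeks (adjusted p = 0.442, limma). The F test call held without each array in turn, with adjusted p between 0.00251 and 0.0333, and was lost under quantile normalization (0.115).

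Acadl (1448987_at), the long-chain dehydrogenase, read 8.62, 7.97, 6.79 and 7.70 at 4 weeks. At 8 weeks it ran from 7.25 through a median of 7.48 to 7.91, and at 12 weeks from 7.14 through 7.58 to 8.19. It read 7.24, 8.33, 6.75, 6.18 and 7.01 at 16 weeks and 4.04, 6.60, 6.67, 6.63 and 6.48 at 20 weeks. Every 20-week array lay below every 4-week array, a separation in that direction that 2.63% of all genes also had. Acadl changed over the 5 ages (adjusted p = 0.0454, limma F test), but 19 of the 26 fits that left out 1 array lost this call, with adjusted p up to 0.0812. Its difference for 20 against 4 weeks was -1.68 ± 0.46 (adjusted p = 0.0556, limma) and -1.17 without the pair of arrays that stand apart (adjusted p = 0.0278). Among all probe sets it passed (adjusted p = 0.0474, limma), a call that 21 of 26 fits without 1 array did not keep. Acadl lies on chromosome 1, which also holds Idd5, between Ctla4 and Slc11a1 in gene order, and whether its copy here is of NOD origin was not analysed here. Nor was this analysed for Acadm, which lies on chromosome 3, the chromosome of Idd3.

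Acadm (1415984_at), the medium-chain dehydrogenase, was highest at 12 weeks. It read 8.42, 8.07, 7.26 and 8.45 at 4 weeks, ran from 8.14 through a median of 8.35 to 8.62 at 8 weeks and from 8.47 through 8.78 to 9.86 at 12 weeks. It read 8.49, 8.97, 7.82, 7.37 and 8.07 at 16 weeks and 5.68, 7.38, 7.81, 7.24 and 8.36 at 20 weeks. The lowest level was on 20 weeks replicate 1, and the 20-week arrays overlapped those at 4 weeks. Acadm changed over the 5 ages (adjusted p = 0.0293, limma F test), and the adjusted p was 0.0624 without 12 weeks replicate 3, 0.0537 without 20 weeks replicate 2 and 0.0583 without 20 weeks replicate 4. Its difference was -0.84 ± 0.37 for 16 against 12 weeks (adjusted p = 0.198, limma) and -0.85 ± 0.38 for 20 against 16 weeks (adjusted p = 0.586, limma), the last becoming -0.45 without 20 weeks replicate 1.

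Hadha (1452173_at), the alpha subunit of the trifunctional protein, was high to 12 weeks and lower after. It read 7.08, 6.98, 5.38 and 7.87 at 4 weeks, ran from 6.88 through a median of 7.34 to 8.11 at 8 weeks and from 6.76 through 7.30 to 7.98 at 12 weeks. It read 6.48, 7.16, 4.64, 6.13 and 5.13 at 16 weeks and 6.00, 4.86, 4.94, 4.93 and 7.17 at 20 weeks. In each of the later ages 4 of 5 arrays were below every 8-week and 12-week array, and 1 was among them. How many of all genes had this pattern was not counted. Hadha changed over the 5 ages (adjusted p = 0.0242, limma F test), and the adjusted p was 0.0543, 0.0532 and 0.0527 without 20 weeks replicate 2, 3 or 4. Its difference was -1.45 ± 0.48 for 16 against 12 weeks (adjusted p = 0.0915, limma) and -1.24 ± 0.53 for 20 against 4 weeks (adjusted p = 0.264, limma).

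Hadhb, the beta subunit, was read by a pair of probe sets that differed. Hadhb 1426522_at averaged 8.23 ± 0.38, 8.62 ± 0.34, 9.24 ± 0.41, 8.28 ± 0.59 and 7.05 ± 1.39 (SD, n = 4, 6, 6, 5 and 5) at 4, 8, 12, 16 and 20 weeks. In the fit of all 20110 probe sets kept, which called 14.9% of them over the 5 ages, it changed (adjusted p = 0.0130, limma F test). Hadhb 1437172_x_at, which stands for the gene by its higher mean, did not pass (adjusted p = 0.410, limma F test over genes) and averaged 10.81 at 20 weeks and 10.96 at 4 weeks. Names ending in _x_at mark probe sets whose probes can also bind related transcripts. The difference of 1426522_at minus 1437172_x_at was 1.04 log2 units lower at 20 than at 4 weeks (-1.04; exact two-sided permutation test, p = 0.0159, the smallest that 5 against 4 arrays allow, and 0.0265 after adjustment over 5 such pairs of probe sets, chosen after their values were seen). As a description, Hadha and Hadhb 1426522_at correlated with Pearson's r of 0.59 over the 26 arrays and 0.77 without the pair that stands apart; with 1437172_x_at r was 0.34.

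Cpt1a, the entry enzyme, gave the largest difference of any member probe set, and its probe sets went apart. Cpt1a 1460409_at read 6.72, 7.34, 5.58 and 7.81 at 4 weeks and ran from 4.99 through a median of 6.04 to 6.71 at 8 weeks. It ran from 5.24 through 5.58 to 6.44 at 12 weeks and read 3.92, 5.39, 4.17, 3.76 and 4.70 at 16 weeks. At 20 weeks it read 2.72, 2.62, 4.81, 4.58 and 5.13, each below every 4-week array. Of all genes, each read by 1 probe set, 2.63% had that separation in that direction, and the share over all probe sets was not counted. Cpt1a 1460409_at fell to a mean of 3.97 at 20 weeks, against 6.86 at 4 weeks, a difference of -2.89 ± 0.51 (adjusted p = 0.00336, limma over all probe sets, which called 3.11% of them in this comparison). The 20-week mean is near background, so the difference may understate the change. Over the 5 ages its adjusted p was 0.00253, and both calls held in all 38 other fits run, with differences for 20 against 4 weeks between -3.38 and -2.53.

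The other Cpt1a probe sets did not share this course. Cpt1a 1434866_x_at, which stands for the gene, averaged 8.17, 7.65, 7.52, 8.26 and 8.19 at 4, 8, 12, 16 and 20 weeks (adjusted p = 0.195, limma F test). Cpt1a 1438156_x_at averaged 7.50, 7.11, 6.87, 7.69 and 7.91 and changed over the 5 ages among all probe sets (adjusted p = 0.0375, limma F test), a call that 13 of the 26 fits without 1 array did not keep. All its 16-week arrays, at 7.46 to 8.01, lay above all its 12-week arrays, at 6.54 to 7.17, with a difference of 0.82 ± 0.27 (adjusted p = 0.0933, limma). Of all genes, each read by 1 probe set, 0.848% had that separation in that direction, and the share over all probe sets was not counted. The difference of 1434866_x_at minus 1460409_at was 2.92 log2 units higher at 20 than at 4 weeks, and that of 1438156_x_at minus 1460409_at 3.31 units higher (exact two-sided permutation test, p = 0.0159 each, adjusted p = 0.0265 each, from the same 5 pairs). Which transcripts of Cpt1a each probe set reads was not analysed here.

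**Figure D2:**
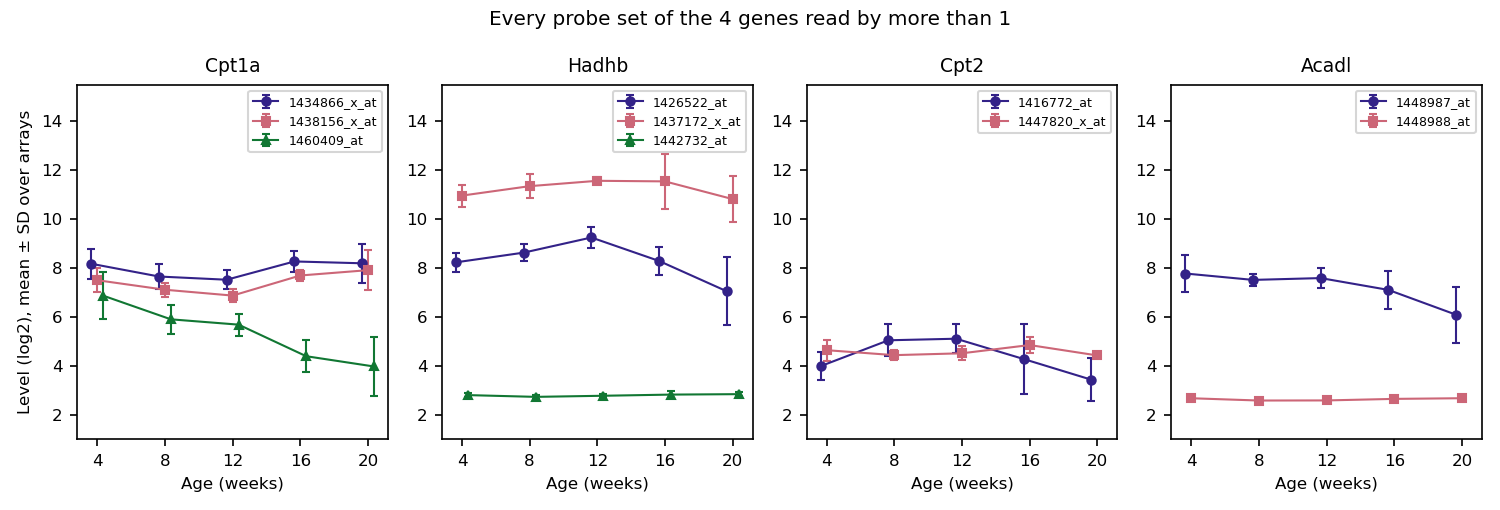
Mean log2 level ± SD over arrays (vertical axis) by age in weeks (horizontal axis) for every probe set of Cpt1a, Hadhb, Cpt2 and Acadl. Cpt1a 1460409_at averages 3.97 at 20 weeks and 6.86 at 4 weeks while both _x_at probe sets of Cpt1a stay above 6.8.

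Cpt2, which completes the carnitine transfer, did not pass on either probe set. Cpt2 1416772_at averaged 3.98 ± 0.57, 5.04 ± 0.66, 5.10 ± 0.59, 4.27 ± 1.43 and 3.43 ± 0.89 (SD, n = 4, 6, 6, 5 and 5) over the ages (adjusted p = 0.0804, limma F test over all probe sets). Its means at 4 and 20 weeks are near background. Cpt2 1447820_x_at stayed between 4.18 and 5.26 on all arrays (adjusted p = 0.209, limma F test over genes). Ehhadh (1448382_at), the peroxisomal enzyme, averaged 5.01 ± 0.94, 5.27 ± 0.64, 5.45 ± 0.63, 4.73 ± 0.41 and 4.46 ± 0.74 (SD, same n) with overlap between all ages (adjusted p = 0.226, limma F test).

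Pdk4 (1417273_at) followed another course, set by a few arrays. It read 3.36, 3.48, 3.46 and 3.36 at 4 weeks and ran from 2.98 through a median of 3.11 to 3.33 at 8 weeks. At 12 weeks it read 6.43, 3.19, 3.29, 4.41, 3.19 and 3.14, at 16 weeks 6.82, 7.15, 4.34, 3.49 and 3.41, and at 20 weeks 3.44, 3.82, 3.45, 3.33 and 3.35. Only 12 weeks replicate 1 and 16 weeks replicates 1 and 2 exceeded 6, and the other 23 arrays lay between 2.98 and 4.41. Pdk4 did not pass over the 5 ages (adjusted p = 0.125, limma F test), and its difference was 1.10 ± 0.60 for 16 against 12 weeks (adjusted p = 0.290, limma) and -1.56 ± 0.63 for 20 against 16 weeks (adjusted p = 0.560, limma). Without 16 weeks replicate 2 these became 0.57 and -1.04. All 8-week arrays lay below all 4-week arrays, as for 3.06% of genes, with both ages near background.

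The same 3 arrays carried fat cell transcripts. Adipoq, the adipocyte hormone adiponectin, read 7.95, 7.57 and 8.32 on 12 weeks replicate 1 and 16 weeks replicates 1 and 2, against 2.11 to 4.61 on the other 23. Ucp1, the uncoupling protein of brown fat, read 7.27, 7.31 and 6.81, against 2.33 to 2.81. Cidea, a lipid droplet protein of brown fat, reached 8.03 on these, against 1.99 to 2.75. Not every fat marker was high there: Lep, Retn, Dio2, Elovl3 and Prdm16 read no more than 3.19 on any array. Cox8b, a respiratory chain subunit, read 5.51, 5.39 and 5.23 on the 3 arrays but was highest, at 5.57, on 20 weeks replicate 1. The mean of the 6 measured adipocyte markers, of 8 listed, was 5.04, 5.11 and 5.25 on these arrays, against 2.81 to 3.89 on the rest, and that of the 6 brown adipocyte markers was 4.64, 4.74 and 4.60, against 2.47 to 3.12. Acadvl (9.15) and Hadhb 1426522_at (9.72) were highest over the 26 arrays on 12 weeks replicate 1. Hadhb 1437172_x_at (12.63) and Cpt2 1447820_x_at (5.26) were so on 16 weeks replicate 1, and Cpt2 1416772_at (5.94) on replicate 2. Pearson's r with the adipocyte mean was 0.95 for Pdk4, 0.62 for Cpt2 1447820_x_at and 0.57 for Hadhb 1437172_x_at. It was 0.46 for Cpt2 1416772_at, 0.41 for Acadvl and -0.12 to 0.33 for the other kept member probe sets. A fit with the adipocyte mean as a covariate was added after the data were seen. In it the Pdk4 difference became 0.56 for 16 against 12 weeks and -0.38 for 20 against 16 weeks. For 20 against 16 weeks the median of the 9 members, Pdk4 among them, went from -0.72 to -0.27, with 7 of 9 negative. For 20 against 4 weeks the difference was -1.67 for Acadvl and -1.73 for Acadl. The adipocyte mean averaged 2.97 at 4 weeks and 3.10 at 20 weeks, so this covariate could hardly move those differences. Skeletal muscle, another tissue rich in Pdk4, had a mean over its 9 markers of 2.82 to 3.37 on all arrays, near background, with Acta1 and Myh4 at medians of 3.17 and 3.71. Its marker Mb, or myoglobin, had a median of 3.59 but reached 5.27 on 1 array.

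**Figure D3:**
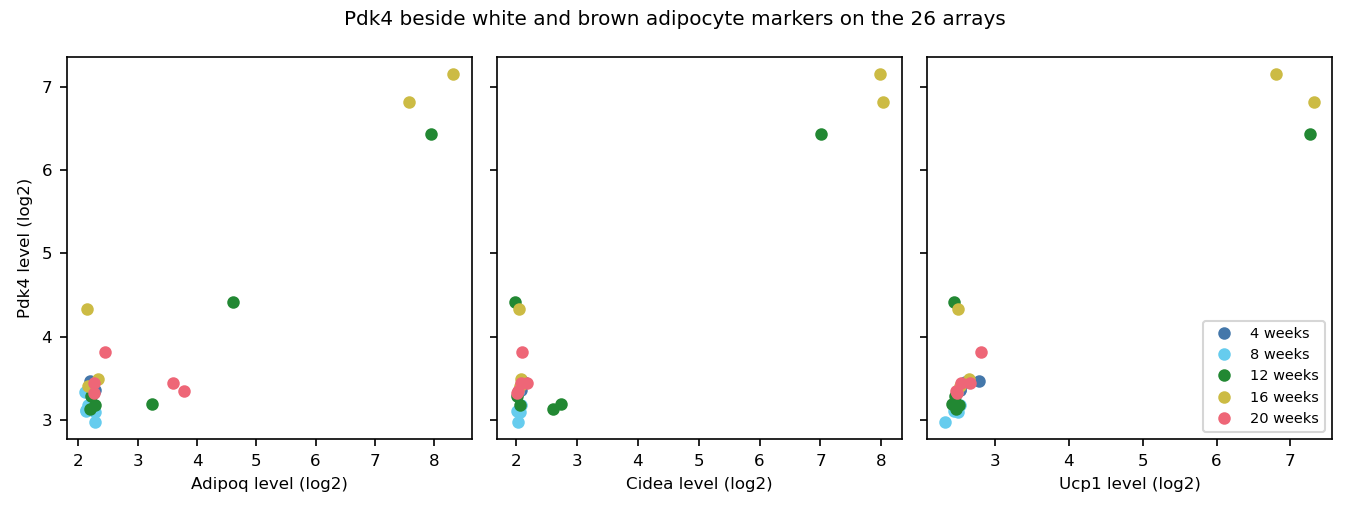
Pdk4 log2 level (vertical axis) against the log2 level of Adipoq, Cidea and Ucp1 (horizontal axes); each point is 1 of 26 arrays, coloured by age. The 3 arrays with Pdk4 above 6 have Adipoq at 7.57 or more and Ucp1 at 6.81 or more.

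The levels of most member probe sets moved with the spread of the whole array. Over the 26 arrays, Pearson's r with the array SD was 0.81 for Acadm, 0.81 for Acadl, 0.82 for Ehhadh and 0.81 for Hadhb 1426522_at. It was 0.80 for Hadhb 1437172_x_at, 0.75 for Cpt2 1416772_at, 0.52 for Acadvl, 0.52 for Hadha and 0.56 for Cpt1a 1460409_at. For Cpt1a 1434866_x_at and 1438156_x_at it was 0.20 and 0.02, for Cpt2 1447820_x_at -0.09 and for Pdk4 -0.02. The same r was not computed over all genes, so these values do not set the members apart from other genes. With the array SD as a covariate, the difference for 20 against 4 weeks was -1.39 for Acadl (adjusted p = 0.00059, limma), -1.50 for Acadvl (0.0407) and -2.64 for Cpt1a 1460409_at (0.000233). The F test call of Acadm ended there (adjusted p = 0.146), as did that of Hadha (0.126). Quantile normalization, which gives all arrays the same spread, ended the calls of Acadm (0.102), Acadvl (0.115) and Hadha (0.236), and called Cpt1a through 1434866_x_at (0.000526). With the adipocyte and salivary gland means as covariates, the adjusted F test p was 0.00726 for Acadvl and 0.0310 for Hadha, while Acadm (0.0625) and Acadl (0.0547) no longer passed.

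Measures of RNA quality also varied over the ages. The level of the actin control probe set at the 3′ end minus that at the 5′ end, which is larger where transcripts are broken or copied short, averaged 2.90 ± 0.92, 2.63 ± 0.50, 3.69 ± 0.52, 4.56 ± 1.24 and 3.89 ± 0.89 log2 units at 4, 8, 12, 16 and 20 weeks (SD, n = 4, 6, 6, 5 and 5). The same difference for Gapdh averaged 1.62, 1.15, 1.80, 2.03 and 2.54. Over the 26 arrays, Pearson's r with the actin difference was -0.59 for Cpt1a 1460409_at, -0.52 for Hadha, -0.40 for Acadl, -0.36 for Acadm and -0.24 for Acadvl, as a description. With the actin difference as a covariate, the adjusted F test p was 0.0192 for Acadvl and 0.0160 for Acadm, while Hadha (0.102) and Acadl (0.0966) no longer passed. The difference of Cpt1a 1460409_at for 20 against 4 weeks was -2.53 there (adjusted p = 0.012, limma over all probe sets).

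**Figure D4:**
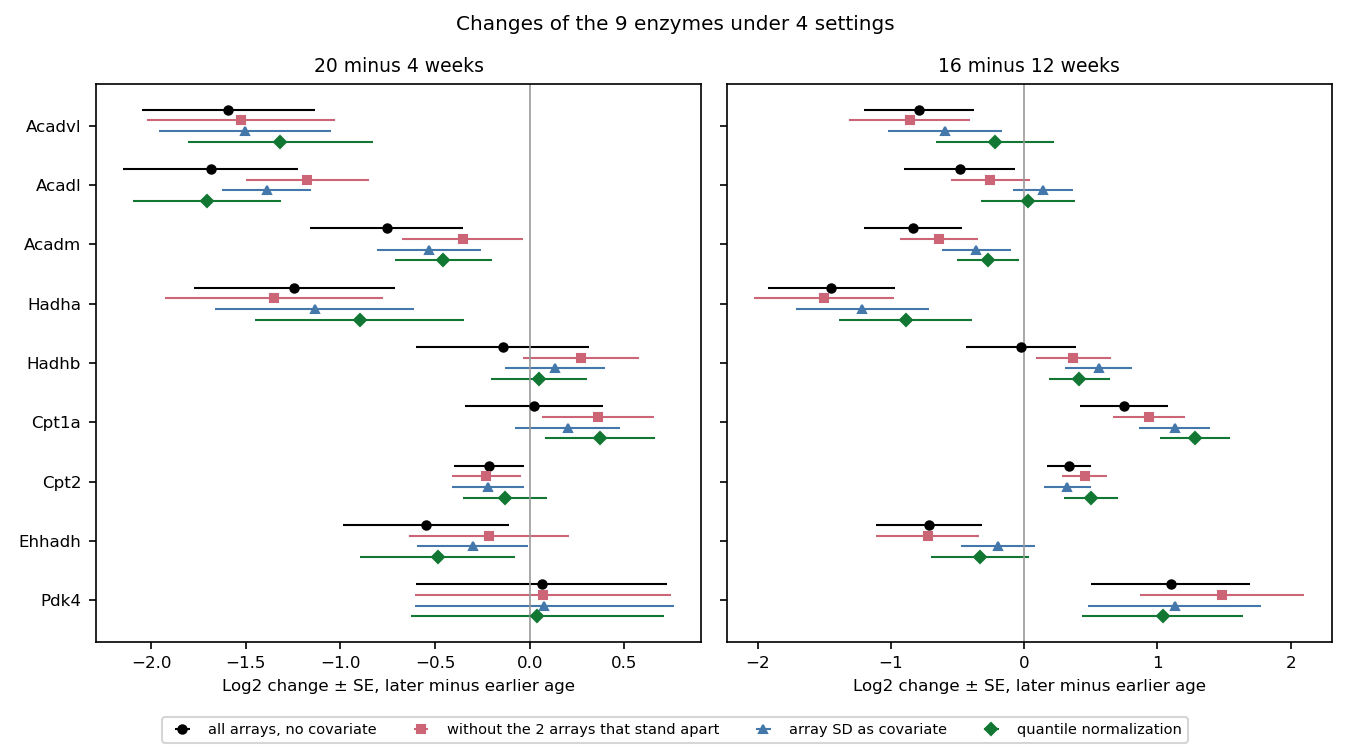
Log2 change ± SE, later minus earlier age (horizontal axis), of the 9 genes for 20 minus 4 weeks and 16 minus 12 weeks under 4 settings. For 20 minus 4 weeks, Acadvl, Acadl, Acadm and Hadha lie below 0 under each setting, and Hadhb lies on either side of it.

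The genes most like each member over the 26 arrays, by Pearson's r among the genes kept, differed between members. For Acadl they were Prkar1a, Slc25a5 and Pdhb (r of 0.94, 0.93 and 0.93), and for Acadm Atp1b3, Glyr1 and Lamp1 (0.91, 0.91 and 0.89). Acadvl was most like Cebpa, Dlat and Mprip (0.87, 0.85 and 0.84), and Hadha like Cdc37, Mprip and Gpr108 (0.92, 0.91 and 0.90). Hadhb was most like Scp2, Sucla2 and Acly (0.91, 0.90 and 0.90), Ehhadh like Dap3, Cdc42se1 and Ube2n (0.88, 0.87 and 0.87) and Cpt1a, through 1434866_x_at, like Spry2, Prdx4 and Hmgn1 (0.77, 0.75 and 0.75). Cpt2 was most like Gfm1, Rdh13 and Mmd (0.70, 0.69 and 0.69), and over the 23 arrays without the 3 that carried fat cell transcripts these were 0.69, 0.53 and 0.37. Pdk4 was most like Adipoq, Car3 and Mmd (0.94, 0.93 and 0.91), and over the same 23 arrays these were 0.43, 0.54 and 0.18. These values are descriptions, since all points share the arrays and their spread.

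Around the 9 enzymes, the other genes of mitochondrial fatty acid oxidation gave 3 of 18 kept genes changed over the 5 ages, against 14.9% of all genes. These were Echs1, the short-chain hydratase, Etfdh, which passes electrons from the dehydrogenases to the respiratory chain, and Acaa2, a thiolase. Echs1 averaged 6.24, 6.71, 6.78, 4.84 and 4.14 at 4, 8, 12, 16 and 20 weeks (adjusted p = 0.00507, limma F test). Etfdh averaged 5.92, 6.54, 6.57, 5.28 and 4.52 and Acaa2 7.88, 8.34, 8.17, 7.50 and 6.33, so each was lowest at 20 weeks. For 16 against 12 weeks 16 of 18 differences were negative, with a median of -0.64 against -0.04 over all genes, and none passed the test. Without 16 weeks replicate 4 it was 14 of 18, with a median of -0.26.

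A further list held the pyruvate dehydrogenase complex, which Pdk4 acts on, its other kinases, its phosphatases and the pyruvate carrier. Of its 11 kept genes 7 changed over the 5 ages, against 14.9% of all genes. Pdhb, a subunit of the complex, fell to 7.75 ± 1.09 at 20 weeks, against 9.59 ± 0.89 at 4 weeks (SD, n = 5 and 4), a difference of -1.84 ± 0.43 (adjusted p = 0.0276, limma; not kept in 4 of 26 fits without 1 array). Pdhx, which anchors a subunit, rose to 8.50 ± 0.49 at 8 weeks, against 6.08 ± 0.76 at 4 weeks (SD, n = 6 and 4), a difference of 2.43 ± 0.52 (adjusted p = 0.0214, limma; not kept in 2 of 26 such fits). Dld, another subunit, and Mpc1, of the mitochondrial pyruvate carrier, also changed over the 5 ages (adjusted p = 0.0153 and 0.0200, limma F test). For 20 against 16 weeks 10 of 11 differences were negative, with a median of -1.10 against 0.01 over all genes, and 8 of 11 with -0.47 without 20 weeks replicate 1.

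Of 13 kept regulators of the pathway 3 changed over the 5 ages, against 14.9% of all genes. These were Rxra, the partner of PPAR alpha, Mlycd, which breaks down the Cpt1 inhibitor malonyl-CoA, and Prkaa2, a catalytic subunit of AMP-activated kinase. Rxra fell to 6.40 ± 0.38 at 20 weeks, against 7.55 ± 0.54 at 4 weeks (SD, n = 5 and 4), a difference of -1.15 ± 0.30 (adjusted p = 0.0480, limma) whose call 17 of 26 fits without 1 array did not keep. Prkaa2 fell to 4.78 ± 0.27 at 8 weeks, against 6.17 ± 1.36 at 4 weeks (SD, n = 6 and 4), a difference of -1.39 ± 0.35 (adjusted p = 0.0461, limma). Without 4 weeks replicate 1, which read 8.08, it was -0.75 (adjusted p = 0.0599), and 19 of 26 fits without 1 array did not keep the call. The F test call of Prkaa2 over the 5 ages was lost in 13 of 26 such fits. In each of the following lists the share that changed was below the 14.9% of all genes. The fatty acid transporter Slc27a4 was the 1 of 13 uptake and activation genes that changed, and Pecr the 1 of 12 peroxisomal genes. Acot1 was the 1 of 9 PPAR alpha targets outside oxidation, a call lost in 14 of 26 fits without 1 array. Of 3 kept ketone body genes none changed. Slc27a4 fell to 3.47 at 16 weeks, against 4.56 at 12 weeks (adjusted p = 0.0254, limma; not kept in 6 of 26 such fits), with the 16-week mean near background.

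**Figure D5:**
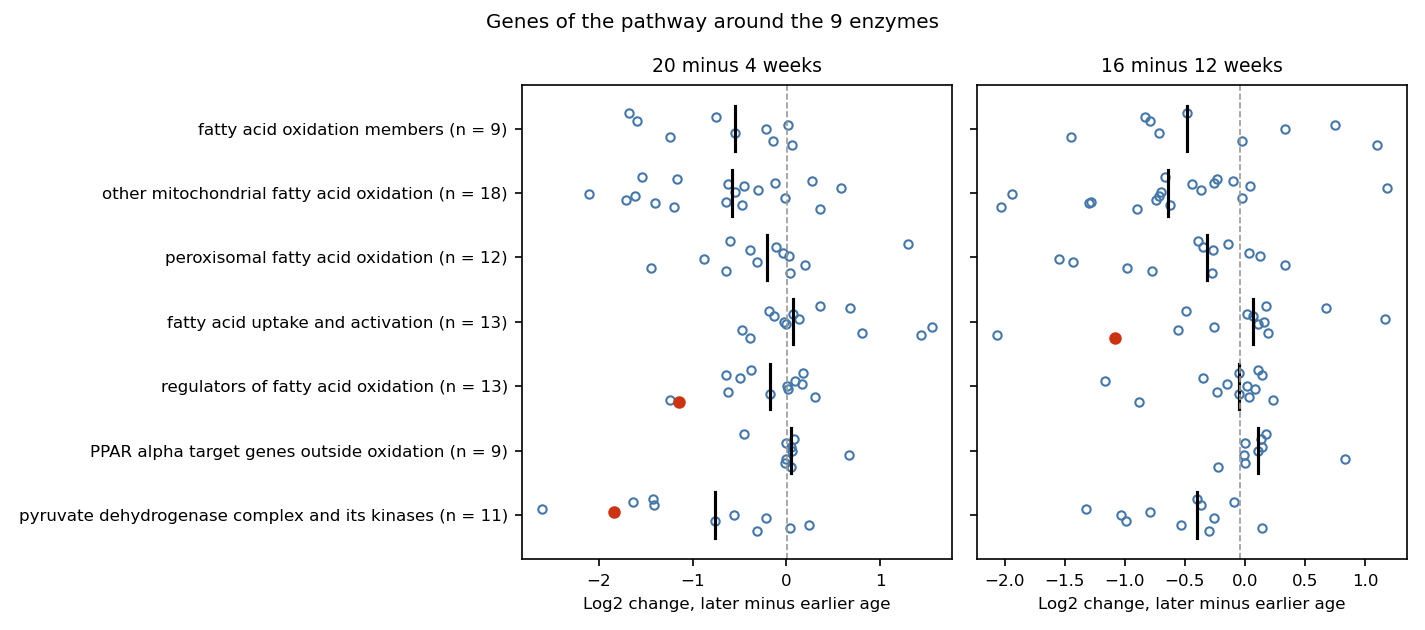
Log2 change, later minus earlier age (horizontal axis), of each kept gene of 7 lists for 20 minus 4 weeks and 16 minus 12 weeks; filled points passed the adjusted test, bars are list medians and the dashed line is the median of all genes. The median for 20 minus 4 weeks is -0.55 for the 9 members, and -0.23 without 20 weeks replicate 1; for the pyruvate dehydrogenase genes it is -0.77, and -0.39 without 4 weeks replicate 4.

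Some markers of leukocytes also changed over the 5 ages, and the means of both marker lists were higher at 12 than at 4 weeks. The macrophage marker mean was 5.44, 7.84, 7.71, 7.41 and 7.46 at 4, 8, 12, 16 and 20 weeks. That of lymphocytes and plasma cells was 3.70, 4.78, 5.78, 5.53 and 5.66. For 8 against 4 weeks 4 macrophage and 2 lymphocyte and plasma cell markers, Ptprc and Igha, passed the adjusted test, all higher. Of the same list Cd3e (-0.20) and Ms4a1 (-0.22) were lower there without passing, and Cd3g and Cd79a were not kept. For 20 against 4 weeks Cd3e (-0.21) was lower and Ms4a1 (0.64) higher, neither passing, with Cd3e near background. None of either list passed between later neighbouring ages. Acadvl, Hadha, Acadm and Acadl were lowest at 20 weeks, and these courses were not tested against each other. Of 8 macrophage markers 5 changed over the 5 ages, and of 5 kept lymphocyte and plasma cell markers 3 did (Igha, Jchain and Ptprc). The complement gene C1qb was higher by 2.81 ± 0.49 for 20 against 4 weeks (adjusted p = 0.00345, limma) and Igha, the heavy chain of immunoglobulin A, by 5.14 ± 0.62 (adjusted p = 5.1e-05, limma). Of 7 kept lacrimal markers 2 changed over the 5 ages, and Pigr, which carries immunoglobulin A into tears, was the 1 that passed for 20 against 4 weeks, higher by 1.77 ± 0.46 (adjusted p = 0.0440, limma), a call that 20 of 26 fits without 1 array did not keep. The differences of 5 of the 7 were negative there, with a median of -0.33, but without 20 weeks replicate 1 those of 3 were, with a median of 0.0037. The part of these cells in the levels of Acadvl, Acadl, Hadha, Acadm and Cpt1a was not tested.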

How the data were processed

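The authors deposited log2 expression values for all 26 arrays in 1 table; per the submitters' processing notes RMA and GCRMA, methods that correct, normalise and summarise probe signals, were involved, with no word on which gave the values. Medians of the arrays ran from 2.94 to 3.22, and nothing further was normalised. Probe sets were named through the platform annotation, in which 34958 had 1 symbol, 932 several and 9211 were not listed. Each of 18194 genes was read by its brightest probe set, and 12377 lay above the array median on at least 4 arrays. Groups came from the titles. Fits used limma 3.58.1 (lmFit, eBayes) in R 4.3.3 with 1 mean for each age, were two-sided, and were checked on simulated data; p-values were adjusted by Benjamini-Hochberg and called under 0.05. A fit of all 20110 probe sets kept was an alternative, as were those in the closing section. Exact permutation tests used scipy. The number of arrays limits the precision. Depth has no counterpart on arrays. The members and lists were chosen with earlier results of these data known. Named genes were all members, up to 4 genes of each list with the smallest F test p, and the 3 genes most like each member. Markers named outside this rule (such as Lpo, Aqp5, Chrm3, Ucp1, Cidea, Acta1 and Mb) were chosen after their values were seen.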

Additional observations from a re-analysis of the deposited data

Results flagged for a closer look

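In 11 of the 75 sets of arrays of 1 age and 1 probe set, 1 array lay far from the others, and chance alone sets apart about 1 in 20. Of these, 7 concern 20 weeks replicate 1, an array that also stands apart over all probe sets. On it Acadl 1448987_at read 4.04 (others at that age 6.48 to 6.67), Cpt1a 1434866_x_at 6.83 (8.28 to 8.78) and Cpt1a 1438156_x_at 6.50 (8.10 to 8.60). Hadhb read 4.63 on 1426522_at (7.22 to 8.16) and 9.15 on 1437172_x_at (11.16 to 11.28), and Ehhadh 3.13 (4.75 to 4.87). Hadhb 1442732_at, near background, was highest there at 3.00 (2.78 to 2.81). Without this array the F test adjusted p of Cpt1a, through 1434866_x_at, was 0.0445, against 0.195 with it.

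The other 4 lay elsewhere. Cpt2 1416772_at read 3.95 on 12 weeks replicate 2 (5.16 to 5.60), and Hadhb 1426522_at 7.67 on 4 weeks replicate 3 (8.35 to 8.49). Hadhb 1442732_at read 2.63 on 12 weeks replicate 4 (2.78 to 2.83), and Pdk4 3.82 on 20 weeks replicate 2 (3.33 to 3.45), both near background.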

How the results depend on the processing

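The count of 4 members changed over the 5 ages became 2 under quantile normalization, 2 with the replicate number as a block, 2 with adipocyte and salivary gland markers as covariates and 8 with array weights, a setting that called 65.9% of all genes. It ran from 1 to 4 without each array in turn, being 1 without 20 weeks replicate 2 or 4 and 2 without 12 weeks replicate 3 or 20 weeks replicate 3. Acadl was no longer called in 19 of these 26 fits, so most of them did not keep all 4 genes. For 20 against 4 weeks the count of 0 became 1 under quantile normalization, with probe sets averaged per gene, without probe sets ending in _x_at or _s_at, without the pair of arrays that stand apart or with both marker means, 2 with the stricter filter at the 75th percentile, with array SD or the adipocyte mean alone as covariate or with every probe set tested, and 4 with array weights; without each array it ran from 0 to 2. For 16 against 12 weeks the 0 became 1 under quantile normalization or with array SD and 5 with array weights. With array weights it also became 1 for 8 against 4 and for 20 against 16 weeks, and for 12 against 8 weeks it was 0 in all 42 alternatives. Over all probe sets, the 7 member probe sets changed became 4 with the block and 12 with array weights, and 3 to 8 without each array. The 2 that changed for 20 against 4 weeks became 1 under median centring, no filter, trend and robust, or the actin covariate, and 7 with array weights, and ran from 1 to 3 without each array. Cpt1a for 16 against 12 weeks turned to -1.29 without _x_at and _s_at probe sets, because 1460409_at then stands for the gene. The causes of the other changes were not tested.

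Whether the replicate numbers pair arrays is not given by the labels. Deviations of same-numbered arrays from their age means correlated with a median r of -0.08 (from -0.48 to 0.49 over 47 pairs). For different numbers the median was 0.02 (from -0.66 to 0.61). These values cannot exclude a pairing. Beside the settings named above for single genes, the F test call of Acadl ended with the block (adjusted p = 0.0945), no filter (0.0631), median centring (0.0516), the actin covariate (0.0966) or without the pair of arrays (0.0628), that of Acadm with the block (0.0608) and that of Hadha with the actin covariate (0.102), under which Pdk4 passed (0.0414), as it did with array weights (0.0162). The signal of Cpt1a 1460409_at and Cpt2 1416772_at near background limits their differences. Apart from fits without 1 array, the median of the 9 members for 20 against 16 weeks was weakest, at -0.27, with the adipocyte mean alone as covariate, and that for 20 against 4 weeks ran from -0.22 with array weights to -1.18 without _x_at and _s_at probe sets. The lacrimal marker median for 20 against 4 weeks turned to 0.45 with the actin covariate and 0.17 with array SD.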
